A study of Mus musculus with 8 samples.

Results

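Interferon regulatory factors (IRFs) are transcription factors that carry the signal of interferons and of receptors for microbial and self nucleic acids into the nucleus. All share a DNA-binding domain that reads repeats of the letters GAAA, which make up the interferon-stimulated response element (ISRE) in front of interferon-responsive genes. Irf3 and Irf7 switch on the interferon genes after infection, Irf9 is the DNA-binding part of the complex, with Stat2, that answers type I interferon, and Irf1 and Irf2 act as an activator and its competitor at the same sites. Irf5 drives inflammatory cytokines downstream of Toll-like receptors, Irf4 competes with it for the adaptor Myd88, and Irf8 works with the factor PU.1 (Spi1) in the formation and identity of microglia, the resident macrophages of the brain.

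The members were the 8 genes Irf1, Irf2, Irf3, Irf4, Irf5, Irf7, Irf8 and Irf9, of 19938 genes measured. Each was read from a probe set annotated to that gene alone, and of several probe sets the one with the highest mean over all 8 arrays was used. This applied to Irf1, which had 2, while the other 7 members had 1 each. No filter on dim signal was used, so all 8 members were tested. The study profiled microglia sorted by flow cytometry for high CD11b and intermediate CD45 from whole brains of Swiss Webster mice at 17 weeks of age. The groups were 4 samples labelled MFP2 knockout and 4 controls labelled wild type, all labelled female, with 1 microarray per sample. MFP2 is the product of Hsd17b4 and breaks down fatty acids in peroxisomes; the labels do not describe the knockout allele or name a treatment. The question is what loss of MFP2 does to the RNA of microglia. Replicates are numbered, with no statement that they are different mice, so the p-values speak of variation among the samples, which may be technical.

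Values are log2 expression levels after robust multi-array averaging (RMA), so a difference of 1 is a doubling, and a gene is called higher or lower where the limma adjusted p is under 0.05 over all 19938 genes. Hsd17b4 measured 4.76, 7.20, 5.21 and 5.20 in knockout 1 to knockout 4, against 8.83, 9.09, 8.15 and 7.82 in control 1 to control 4 (limma adjusted p = 0.00158). Knockout 2 thus kept more of the signal of the targeted gene than the other knockout arrays. Values without it are given beside the calls of IRF genes and the pathway counts that it changes. Over all genes 9.55% were called, 5.38% higher and 4.17% lower; after quantile normalization of the deposited values lower calls (1149) outnumbered higher ones (1086). On the first principal component knockout 1 and knockout 2 lay nearest to the controls and control 3 nearest to the knockouts. Control 1 went against its female label, with Xist at 6.80 and the Y-linked Eif2s3y at 8.14, against at least 10.55 and at most 2.99 in the other 7 arrays. By these transcripts the control group mixed sexes while all knockout arrays read as female. The part of sex in the changes was not tested. Of 9 microglial markers measured, all averaged between 9.45 and 12.54, and 8 were lower in knockouts. Their summed level on the linear scale was 21554 to 25635 in knockout arrays and 32274 to 37718 in control arrays. Neutrophil markers were also present, at a summed level of 6737 to 11921 in knockout arrays and 2811 to 18456 in control arrays, and 0 of 6 were called by limma, with 0 at an unadjusted p under 0.05. Of the other marker lists, 1 of 3 monocyte markers was lower, and 1 of 2 endothelial, 1 of 4 astrocyte and 1 of 3 oligodendrocyte markers were higher. Of 5 T and NK cell and 4 neuronal markers, 0 were called by limma, with 1 of each list at an unadjusted p under 0.05.

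Irf2, Irf4 and Irf5 were lower in MFP2 knockout microglia, Irf7 was higher in every knockout array without passing the test, and Irf1, Irf3, Irf8 and Irf9 did not pass. Thus 3 of 8 members were called lower, where 4.17% of all genes were, and 0 were called higher by limma, where 5.38% of all genes were. At an unadjusted p under 0.05, Irf7 and Irf9 had positive changes. Without knockout 2, 2 members were called lower and 1, Irf7, higher. The knockout and control arrays did not overlap for 4 of the 8 members, Irf2, Irf4, Irf5 and Irf7, which was so for 14.0% of all genes. The median log2 change of the 8 members was -0.049, against -0.022 for all genes.

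**Figure D1:**
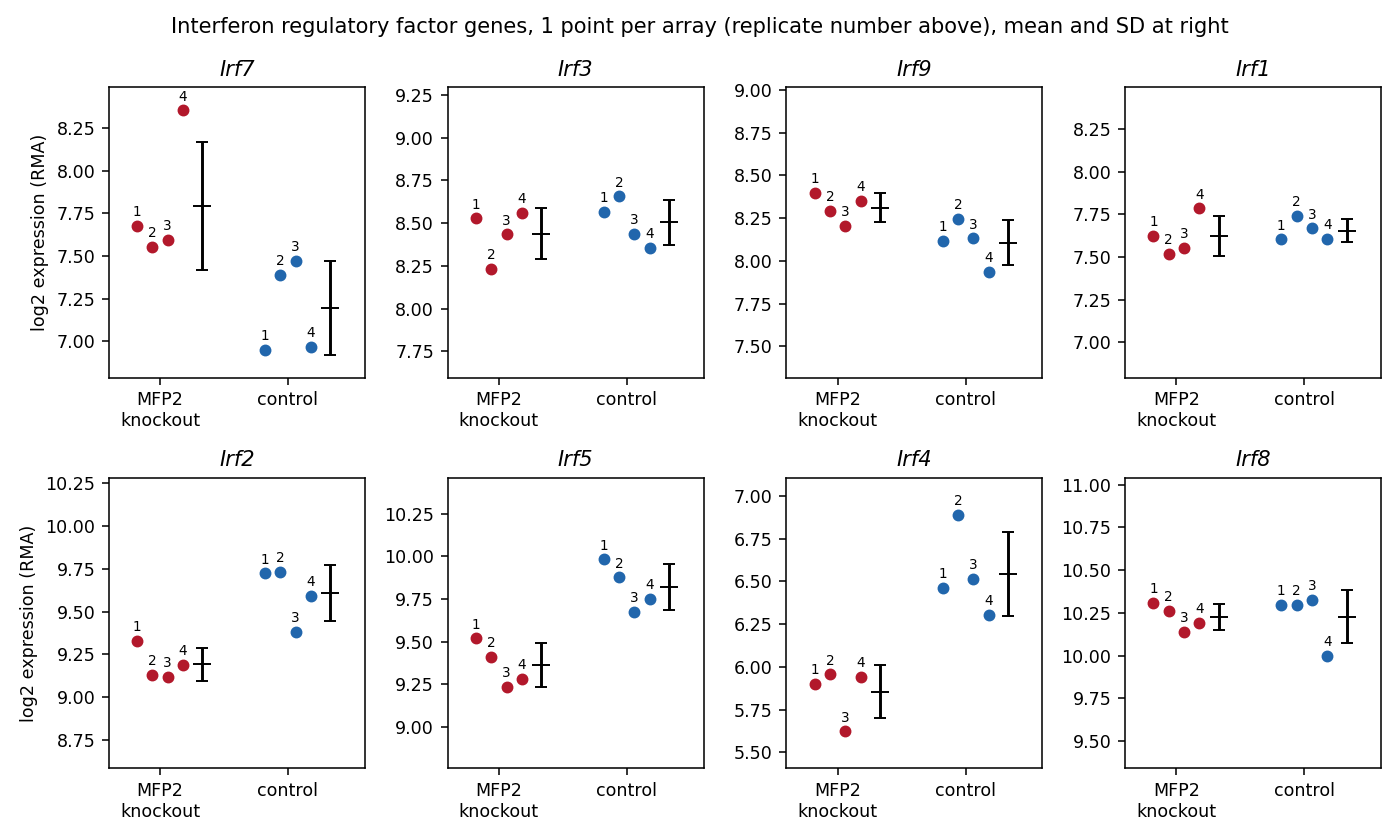
Log2 expression of the 8 members, 1 panel per gene, with MFP2 knockout arrays left and control arrays right; each point is an array with its replicate number, the bar gives mean and SD (n = 4 each), and every panel spans the same number of log2 units. The knockout points of Irf2, Irf4 and Irf5 all lie below the control points, those of Irf7 all lie above, and knockout 4 stands out at 8.35 for Irf7.

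The DNA just upstream of 4 members is shown because 2 of them fell (Irf2 and Irf4) and the others (Irf1 and Irf8) did not pass, and because 3 of the 4 carry sequences that factors of this pathway recognise. Each run is the 250 bases before the gene's first listed start in the RefSeq promoter table (GRCm38.p6). It is read 5′ to 3′ on the gene's strand, which is the plus strand for all 4. Capitals mark matches to the ISRE core GAAANNGAAA, to the GAS element (interferon-gamma-activated site) TTCNNNGAA or to the composite ETS and IRF element (EICE) GGAANNGAAA, each searched on both strands. The windows are chr8:46739495-46739744 for Irf2, chr13:30748983-30749232 for Irf4, chr11:53769764-53770013 for Irf1 and chr8:120736108-120736357 for Irf8.
Irf2: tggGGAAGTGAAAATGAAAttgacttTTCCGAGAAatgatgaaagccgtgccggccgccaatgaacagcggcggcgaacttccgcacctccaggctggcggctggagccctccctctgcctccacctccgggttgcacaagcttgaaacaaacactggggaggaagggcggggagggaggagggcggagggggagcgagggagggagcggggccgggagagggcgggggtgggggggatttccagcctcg
Irf4: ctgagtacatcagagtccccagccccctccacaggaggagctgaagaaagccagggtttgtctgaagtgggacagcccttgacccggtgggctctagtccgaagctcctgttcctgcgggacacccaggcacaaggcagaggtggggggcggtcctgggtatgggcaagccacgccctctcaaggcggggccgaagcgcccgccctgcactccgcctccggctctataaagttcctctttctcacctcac
Irf1: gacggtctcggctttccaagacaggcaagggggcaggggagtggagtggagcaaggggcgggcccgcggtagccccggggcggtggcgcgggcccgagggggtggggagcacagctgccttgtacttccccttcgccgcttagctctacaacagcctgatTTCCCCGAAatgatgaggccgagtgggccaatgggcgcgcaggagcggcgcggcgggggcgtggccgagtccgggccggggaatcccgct
Irf8: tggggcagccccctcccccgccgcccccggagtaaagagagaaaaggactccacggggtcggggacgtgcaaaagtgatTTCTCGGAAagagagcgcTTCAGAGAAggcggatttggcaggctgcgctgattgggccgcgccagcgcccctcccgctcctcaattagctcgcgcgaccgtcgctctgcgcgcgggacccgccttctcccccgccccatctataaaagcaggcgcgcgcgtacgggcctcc

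The Irf2 window held an ISRE core, GAAAATGAAA, from 241 to 232 bases before the start. An EICE match, GGAAGTGAAA, overlapped it from 247 to 238 bases before the start, and a GAS match, TTCCGAGAA, followed at 224 to 216. Irf1 held 1 GAS match, TTCCCCGAA, from 90 to 82 bases before its start. Irf8 held 2, TTCTCGGAA and TTCAGAGAA, from 171 to 163 and from 153 to 145. The Irf4 window held none of the 3 letter patterns. Irf1 and Irf8 each had a further listed start, whose window held no match, and the windows of Irf3 and Irf9 held none. Of the 11 windows of all 8 members, 1 held an ISRE core, 3 a GAS match and 1 an EICE match. Over the 32851 windows of the whole table, 2.98% held an ISRE core, 7.02% a GAS match and 2.30% an EICE match. A match is a run of letters and not evidence of binding in these cells. The windows of Irf5 and Irf7 overlap the annotated span of their genes and are not printed; neither held a match to the 3 patterns.

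Irf2, the competitor of Irf1 at ISRE sites, was lower in knockout microglia. Its log2 values were 9.33, 9.13, 9.12 and 9.19 in knockout 1 to knockout 4, against 9.72, 9.73, 9.38 and 9.59 in control 1 to control 4. The groups did not overlap, with a gap of 0.052 between knockout 1, the highest knockout array, and control 3, the lowest control array. The change was -0.42 ± 0.10 (SE), or 1.33-fold lower (limma adjusted p = 0.0205). The call was lost without knockout 2 (adjusted p = 0.0504), knockout 3 (0.0685), control 1 (0.0698) or control 2 (0.0628), and the change stayed between -0.49 and -0.37 with any single array left out. In bulk RNA from sorted cells, fewer cells of a type and less RNA per cell cannot be told apart. The fall of Irf2 moved together with that of the microglial markers given above, whose part in it was not tested.

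Irf5, the factor downstream of Toll-like receptors that drives genes such as Il12b and Tnf, was lower as well. It measured 9.52, 9.41, 9.24 and 9.28 in knockout 1 to knockout 4, against 9.98, 9.88, 9.67 and 9.75 in control 1 to control 4. Every knockout array was below every control array, by at least 0.15. The change was -0.46 ± 0.10 (SE), or 1.37-fold lower (limma adjusted p = 0.0120). The call held with any single array left out (adjusted p between 0.0102 and 0.0454), and it was lost when control 1, control 3 and knockout 2 were all left out (0.0885), a choice made after seeing the data. Irf5 fell together with the microglial markers as Irf2 did, and their part in its fall was likewise not tested.

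Irf4, which competes with Irf5 for Myd88 and takes part in lymphocyte differentiation and alternative activation of macrophages, had the largest fall of the 8. Its log2 values were 5.90, 5.96, 5.62 and 5.94 in knockout 1 to knockout 4, against 6.46, 6.89, 6.51 and 6.31 in control 1 to control 4. The groups were separated by 0.35, and knockout 3 was the lowest array. Irf4 was also the dimmest of the 8, at a mean of 5.85 in knockouts and 6.54 in controls. The median over all probe sets was 6.03 to 6.15 by array. The change was -0.69 ± 0.13 (SE), or 1.61-fold lower (limma adjusted p = 0.00472). The call held with any single array left out (adjusted p between 0.00525 and 0.0171) and without control 1, control 3 and knockout 2 (0.0412).

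Irf4 is also made by B cells and dendritic cells, and some macrophages at the borders of the brain could pass the sort. Of 6 border macrophage markers, 4 were lower in knockouts and 1, Ms4a7, was higher. Their summed linear level was 342 to 556 in knockout arrays and 568 to 916 in control arrays, without overlap. The mannose receptor gene Mrc1 averaged 6.55 ± 0.53 in knockouts and 8.10 ± 0.40 in controls (SD, n = 4 each), and the platelet factor gene Pf4 5.53 ± 0.44 and 6.83 ± 0.23. Of 7 dendritic cell markers, 1 was lower, the lectin gene Cd209a (6.33 ± 0.43 in knockouts and 7.12 ± 0.24 in controls), and the summed level was 358 to 427 in knockout arrays and 389 to 496 in control arrays. Of 4 B-cell markers, 0 were called by limma and 0 reached an unadjusted p under 0.05. Cd79b averaged 7.96 in knockouts and 7.61 in controls, Pax5 averaged 5.50 and 5.55, and Cd79a and Ms4a1 averaged under 5 in both groups. The summed level was 248 to 407 in knockout arrays and 240 to 329 in control arrays. The part of these cell types in the fall of Irf4 was not tested.

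**Figure D2:**
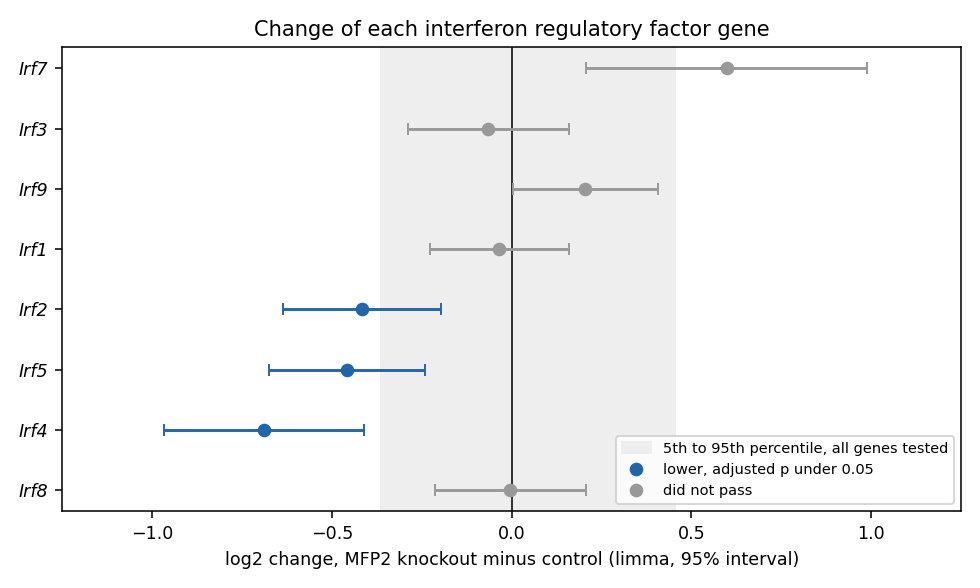
Log2 change (MFP2 knockout minus control, horizontal axis) of each member with its 95% interval from limma; blue marks genes called lower, grey those that did not pass, and the shaded band spans the 5th to 95th percentile of all 19938 genes, -0.36 to 0.45. Irf4, at -0.69, Irf5, at -0.46, Irf2, at -0.42, and Irf7, at 0.60, lie outside the band, and the other 4 lie inside it.

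Irf7, the interferon-inducible amplifier of type I interferon production, stood higher in knockout microglia but missed the threshold. It measured 7.68, 7.55, 7.59 and 8.35 in knockout 1 to knockout 4, against 6.95, 7.39, 7.47 and 6.97 in control 1 to control 4. All knockout arrays lay above all control arrays, with a gap of 0.080 between knockout 2 and control 3. Knockout 4 lay 0.68 above the next knockout array, and the controls fell into a low pair (control 1 and control 4) and a high pair. The change was 0.60 ± 0.18 (SE), or 1.51-fold, with a 95% interval of 0.21 to 0.99 (limma adjusted p = 0.0578). The adjusted p fell below the threshold without knockout 2 (0.0486) or control 3 (0.0451), and was between 0.0700 and 0.159 without any other single array. Without knockout 4 the change was 0.41 (adjusted p = 0.106).

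Irf3, the constitutively made partner of Irf7 that is activated by phosphorylation, did not pass the test. It measured 8.53, 8.23, 8.43 and 8.56 in knockout 1 to knockout 4, against 8.57, 8.66, 8.44 and 8.36 in control 1 to control 4. The groups overlapped across most of their range. The change was -0.065 ± 0.10 (SE), with a 95% interval of -0.29 to 0.16 (limma adjusted p = 0.806).

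Irf9, the DNA-binding subunit of the type I interferon complex, averaged slightly more in knockouts. Its log2 values were 8.40, 8.29, 8.21 and 8.35 in knockout 1 to knockout 4, against 8.12, 8.25, 8.13 and 7.93 in control 1 to control 4. The groups overlapped by 0.041, since knockout 3 was below control 2. The change was 0.20 ± 0.092 (SE), at an unadjusted p of 0.0468 and a limma adjusted p of 0.228, and it was between 0.15 and 0.25 under every alternative.

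Irf1, an activator induced by interferon-gamma, did not pass the test. It measured 7.63, 7.52, 7.55 and 7.78 in knockout 1 to knockout 4, against 7.60, 7.74, 7.67 and 7.61 in control 1 to control 4. Knockout 4 was the highest array and knockout 2 the lowest, so that the knockout values enclosed the control values. The change was -0.034 ± 0.089 (SE), with a 95% interval of -0.23 to 0.16 (limma adjusted p = 0.892). The second Irf1 probe set, which the annotation ties to a single cDNA clone, averaged 6.63 ± 0.14 in knockouts and 6.84 ± 0.20 in controls (SD, n = 4 each). It did not pass either (limma adjusted p = 0.335 over all probe sets with 1 gene symbol).

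Irf8, the IRF with the closest tie to microglial identity, showed no difference that passed the test, while 8 of the 9 microglial markers measured were lower. It measured 10.31, 10.26, 10.14 and 10.19 in knockout 1 to knockout 4, against 10.30, 10.30, 10.32 and 10.00 in control 1 to control 4. Control 4 was 0.30 below the next control array, and the other 7 arrays lay between 10.14 and 10.32. The change was -0.0036 ± 0.096 (SE), with a 95% interval of -0.21 to 0.21 (limma adjusted p = 0.990). The partner factor Spi1 averaged 10.47 in knockouts and 10.52 in controls (limma adjusted p = 0.834).

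The genes whose profile over the 8 arrays was most like that of a called member were found by the root mean square difference of log2 values, each gene centred on its own mean. Irf2 was followed most closely by Git2, a scaffold and regulator of ARF GTPases, at a difference of 0.028. Next came the histone methyltransferase genes Setd2 (0.040) and Kmt5b (0.040). Irf5 was followed by Sipa1, which inactivates the GTPase Rap (0.038), by Anks1 (0.038) and by Ikzf1, the Ikaros transcription factor (0.043). Irf4 was followed less closely by the interleukin-17 receptor gene Il17ra (0.090), the TGF-beta co-receptor endoglin Eng (0.099) and the kinase gene Wnk3 (0.10). These 9 genes changed by -0.77 to -0.38 on the log2 scale, and each likeness rests on 8 arrays in 2 groups.

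The interferon genes themselves, of which the type I genes are targets of Irf3 and Irf7, were not called. Of 7 measured, 0 were higher and 0 lower by limma, where 5.38% and 4.17% of all genes were. Of the 7, 0 reached an unadjusted p under 0.05. Ifng averaged 5.31 in knockouts and 5.44 in controls (limma adjusted p = 0.471), and Ifna4 averaged 4.35 and 4.50 (limma adjusted p = 0.498). Ifnb1 was at 4.28 in knockouts and 4.37 in controls. Of these, 3 averaged under 5, and genes this dim have their changes understated.

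Among 11 interferon receptor and JAK-STAT genes, 1 was higher and 1 lower, where 5.38% and 4.17% of all genes were. Stat2, the partner of Irf9, averaged 8.28 ± 0.17 in knockouts and 7.78 ± 0.22 in controls (SD, n = 4 each), a change of 0.50 ± 0.12 (SE, limma adjusted p = 0.0227). Ifngr1, the ligand-binding chain of the interferon-gamma receptor, averaged 10.85 ± 0.061 in knockouts and 11.46 ± 0.12 in controls, a change of -0.62 (limma adjusted p = 0.00106). The type I receptor chains Ifnar1 and Ifnar2 did not pass, with changes of 0.13 and -0.055. Without knockout 1, knockout 3, control 1 or control 4 the count of higher genes was 0, and without knockout 2 it was 2.

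Of 23 sensors, adaptors and kinases that activate IRFs, 3 were higher and 3 lower, where 5.38% and 4.17% of all genes were. Ikbke, a kinase that phosphorylates Irf3 and Irf7, averaged 7.11 ± 0.32 in knockouts and 6.02 ± 0.34 in controls (SD, n = 4 each), a change of 1.09 (limma adjusted p = 0.00251). Tank, a scaffold of that kinase, rose by 0.58, and Dhx58, which modulates the cytosolic RNA sensors, by 0.73. Sting1, the adaptor of cytosolic DNA sensing that leads to Irf3, fell by 0.80 ± 0.097 (SE). The endosomal RNA receptor gene Tlr3 fell by 0.61 and the endotoxin receptor gene Tlr4 by 0.50. The kinase gene Tbk1, which phosphorylates Irf3, did not pass (9.21 in knockouts and 9.30 in controls, limma adjusted p = 0.742). Without knockout 2 the count of higher genes in this list was 4.

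IRF partners and regulators also went both ways, 4 of 22 higher and 2 lower, against 5.38% and 4.17% of all genes. Batf, an AP-1 family factor that pairs with Irf4 and Irf8, averaged 7.43 ± 0.46 in knockouts and 6.69 ± 0.18 in controls (SD, n = 4 each), a change of 0.74 (limma adjusted p = 0.0266). Its relative Batf2, which pairs with Irf1, rose by 0.52 and the repressor gene Bcl6 by 0.58. Usp18, a brake on the type I receptor, rose by 0.48 with overlapping groups, just past the threshold (limma adjusted p = 0.0492). Ikzf1 fell by 0.50 ± 0.099 (SE) and Pias1, an inhibitor of STAT signalling, by 0.42. The count of higher genes was 2 without knockout 3, knockout 4, control 1 or control 2, and the count of lower genes was 1 without knockout 3 or control 1.

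Targets of ISRE-binding complexes had the highest median of the 7 pathway lists. Of 28 measured, 12 were higher and 0 lower, where 5.38% and 4.17% of all genes were. The median log2 change was 0.42, against -0.022 for all genes. The chaperone Rtp4 averaged 8.55 ± 0.20 in knockouts and 7.71 ± 0.23 in controls (SD, n = 4 each), and Oasl2, of the 2′-5′ oligoadenylate synthetase family, 7.97 ± 0.36 and 6.91 ± 0.31. Ifi27l2a was higher by 1.30 and Dhx58 by 0.73 (limma adjusted p between 0.00158 and 0.00363 for these 4). Averaged over all 28 genes, the log2 level was 7.59, 7.40, 7.64 and 7.94 in knockout 1 to knockout 4, against 7.11, 7.20, 7.35 and 6.97 in control 1 to control 4. Knockout 4 was the highest array for this average as for Irf7, control 3 the highest control for both, and knockout 2 the lowest knockout for both. Marker lists of other cell types shared this order in part. The mean of 2 endothelial markers was 6.50, 6.44, 6.75 and 7.04 in knockout 1 to knockout 4, against 5.48, 5.62, 6.20 and 5.65 in control 1 to control 4. Of the 2, Flt1 was higher by 1.99 and Cldn5 did not pass (-0.10). The mean of 4 astrocyte markers was also highest in knockout 4 (5.93) and, among controls, in control 3 (5.52), but its lowest knockout was knockout 1 (5.59). The B-cell and dendritic cell means had the same highest arrays. The T and NK cell, neuronal, oligodendrocyte and neutrophil means were highest among knockouts in knockout 2 (6.56, 5.64, 6.65 and 10.11). The part of these cell types in the levels of Irf7 and of the 28 targets was not tested. Without knockout 2 the count of higher targets was 17, and without knockout 3, knockout 4, control 1, control 2 or control 4 it was 8. The list was assembled with earlier results of these data known.

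**Figure D3:**
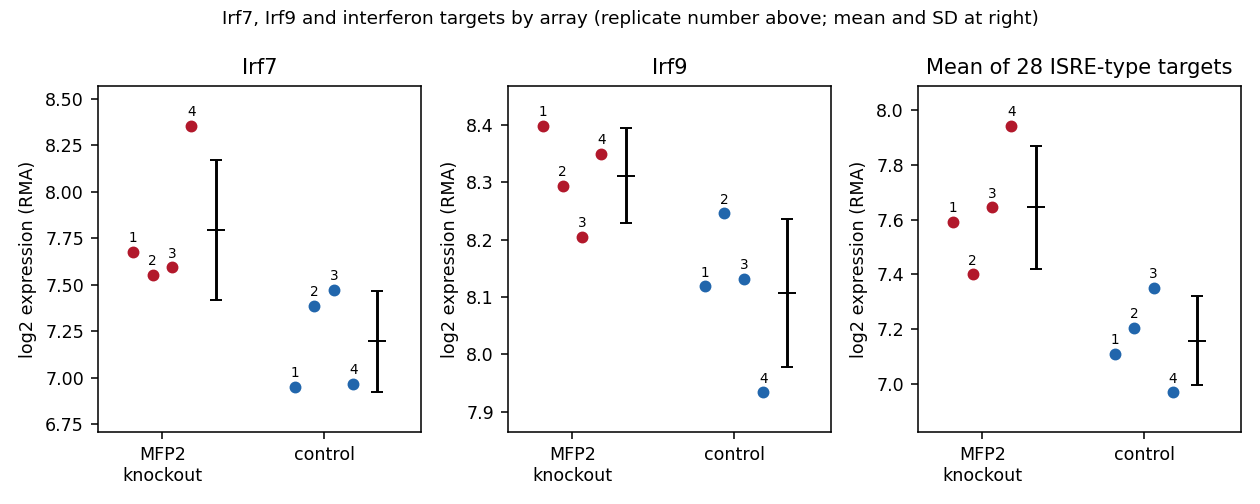
Log2 expression of Irf7, of Irf9 and of the mean over 28 ISRE-type target genes, by array, with MFP2 knockout left and control right; numbers are replicates and bars give mean and SD (n = 4 each). Knockout 4 is highest for Irf7, at 8.35, and for the target mean, at 7.94, and neither panel has a knockout array among the controls; the Irf9 groups overlap.

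Of 19 measured targets of interferon-gamma and Irf1, 3 were higher and 1 lower, where 5.38% and 4.17% of all genes were. The other 15 did not pass, and the median log2 change was 0.13. The chemokine gene Cxcl10 averaged 7.85 ± 0.60 in knockouts and 6.73 ± 0.34 in controls (SD, n = 4 each), a change of 1.11 (limma adjusted p = 0.0145), and the immunoproteasome genes Psmb8 and Psmb9 were higher by 0.53 and 0.50. The guanylate-binding protein gene Gbp7 averaged 6.69 ± 0.24 in knockouts and 7.82 ± 0.14 in controls, a change of -1.13 (limma adjusted p = 0.000290). Guanylate-binding protein genes are close relatives in sequence, so their probe sets can share signal. Without knockout 2 the count of higher genes was 4, and without knockout 4 the count of lower genes was 2.

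Genes known to depend on Irf5 or Irf8 in macrophages or microglia were also divided, with 5 of 14 higher and 3 lower. Over all genes these shares were 5.38% and 4.17%. The median log2 change of the 14 was 0.031. The count of lower genes was 2 without knockout 1, knockout 3, knockout 4, control 1, control 2 or control 4. The count of higher genes was 6 without knockout 1 or control 3. The cytokine gene Il1b averaged 8.44 ± 0.51 in knockouts and 6.74 ± 0.32 in controls (SD, n = 4 each), a change of 1.69 (limma adjusted p = 0.000684). The purinergic receptor gene P2rx4 averaged 10.12 ± 0.21 and 9.17 ± 0.20, a change of 0.94, and the lipopeptide receptor gene Tlr2 was higher by 0.80. Among the genes that Irf5 is known to drive, Il12b was higher by 1.22 (limma adjusted p = 0.00388) and Tnf by 1.22 (0.00789), without overlap of the groups. Il6 fell by 0.50 (limma adjusted p = 0.0339), with overlapping groups and dim means of 5.18 in knockouts and 5.68 in controls. The fractalkine receptor gene Cx3cr1 fell by 0.50 and the ADP receptor gene P2ry12 by 0.45; both also stand among the 8 microglial markers called lower. Counted once each, the pathway lists held 121 measured genes, of which 26 were higher and 10 lower, against 9.55% called over all genes.

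**Figure D4:**
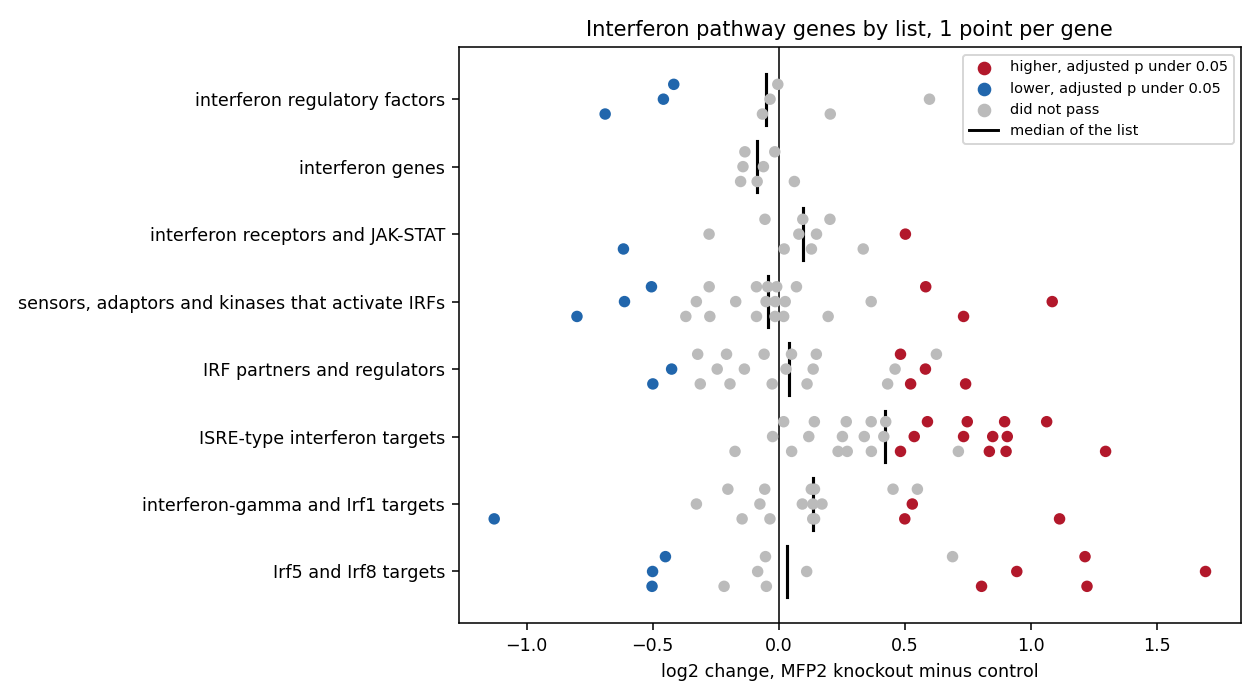
Log2 change (MFP2 knockout minus control, horizontal axis) of the 8 IRF genes and of each measured gene of the 7 pathway lists, with the median of each list as a vertical line; red marks genes called higher, blue genes called lower, grey genes that did not pass. The ISRE-type targets lie mostly right of 0, with a median of 0.42, while the IRF genes have a median of -0.049.

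**Figure D5:**
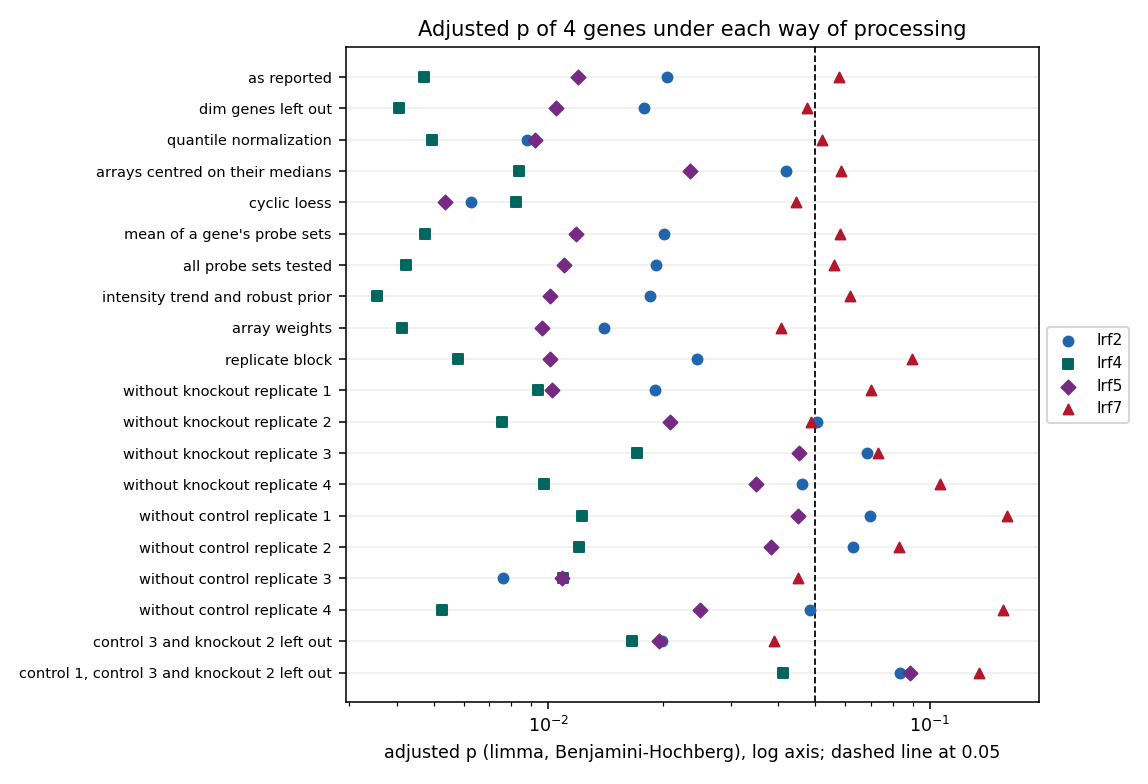
Adjusted p (limma, log axis) of Irf2, Irf4, Irf5 and Irf7 as reported and under each other way of processing, with a dashed line at 0.05. Irf4 stays left of the line throughout, Irf2 crosses it without knockout 2, knockout 3, control 1 or control 2, Irf2 and Irf5 cross it when control 1, control 3 and knockout 2 are left out, and Irf7 lies on either side.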

How the data were processed

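The deposited values are log2 expression levels per probe set and array, made by the authors with RMA per the submitters' processing notes (software and version not given in the sources used here), and the log2 base was inferred from their range, 2.04 to 13.99. RNA was amplified from nanogram amounts per the labels' protocols, which can add noise. RMA equalises the arrays, which hides any shift common to all genes, and the number of arrays, 4 per group, limits the precision. The table held 28874 probe sets: 21789 with 1 gene symbol, 1621 with several and 5464 with none, named through the platform annotation, of which 21698 matched a RefSeq gene number (GRCm38.p6).

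MFP2 knockout was compared with control in limma 3.58.1 (R 4.3.3; lmFit, eBayes, two-sided, no covariate, no filter), with Benjamini-Hochberg adjustment over 19938 genes and a threshold of 0.05. Means are ± SD; SEs are limma's. The method was tested on simulated data. The members and lists were chosen with earlier results of these data known. Named were all members, Hsd17b4, and up to 4 called members of each list by adjusted p (or the 2 with the lowest p). Also named were some of the markers that were called, and 3 nearest genes by profile for each called member. Ifnb1, Ifnar1, Ifnar2, Tlr3, Tlr4, Tbk1, Spi1, Batf, Usp18, Il12b and Tnf were named after their values were seen. So were Il6, P2ry12, Cldn5, Cd79a, Cd79b, Ms4a1, Pax5, Xist and Eif2s3y. Some listed genes are not analysed here. Alternatives were another scaling, handling of probe sets, filter, prior or weights, a replicate block, arrays left out and a stricter threshold. Figures used matplotlib 3.10.9.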

Additional observations from a re-analysis of the deposited data

Results flagged for a closer look

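In the knockout group, Irf7 in knockout 4 (log2 8.35) lay far from the other 3 knockout arrays, the next being 7.68. Irf4 in knockout 3 (5.62) lay below the next knockout array at 5.90, just past the limit for a single distant sample. In the control group, Irf8 in control 4 (10.00) lay below the next control array at 10.30. Such gaps occur by chance in about 1 in 20 groups, and 16 groups were examined.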

How the results depend on the processing

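The median log2 change of the 8 IRF genes was negative under every alternative run (-0.10 to -0.0076), and Irf4 was called lower in all 20. The count of IRF genes called lower, 3 as reported, was 2 to 3 with single arrays left out. It was 1 without control 1, control 3 and knockout 2, and 1 at an adjusted p under 0.01. The count called higher, 0 as reported, was 0 to 1 with single arrays left out, and 1, Irf7, without dim genes (adjusted p = 0.0476), with cyclic loess (0.0446), with array weights (0.0407) or without control 3 and knockout 2 (0.0389). Over all genes the 1073 higher calls were 753 to 1162 and the 832 lower calls 507 to 960 with single arrays left out. Quantile normalization gave 1086 higher and 1149 lower, and centring of arrays on their medians 1035 and 654. Without control 1, control 3 and knockout 2, a set chosen after seeing the data, 649 were higher and 494 lower, and at an adjusted p under 0.01 they were 567 and 358. Changes near 0 crossed it. That of Irf8 was 0.0030 with arrays centred on their medians, 0.0052 with array weights and 0.016 without control 3 and knockout 2. It was 0.065 when control 1 was left out too, and -0.081 to 0.028 with single arrays left out. The Irf8 change was furthest from 0 with cyclic loess, at -0.16 (limma adjusted p = 0.368), and with quantile normalization, at -0.11 (0.616). That of Irf1 was 0.0035 without control 3 and knockout 2. That of Irf3 was 0.0013 without control 1, control 3 and knockout 2, and -0.11 to 0.0038 with single arrays left out. The cause was not tested. Deviations of same-numbered arrays correlated at 0.16, -0.065, 0.0059 and 0.0078 over genes, so the numbers were not taken to pair the samples. With the replicate block, 3 IRF genes were lower and 0 higher by limma, at adjusted p = 0.0246 for Irf2, 0.00580 for Irf4, 0.0101 for Irf5 and 0.0898 for Irf7, and no call among the IRF genes changed. Counts of the partner list went to 4 lower without dim genes, with cyclic loess or with array weights, and to 5 with quantile normalization, where 6 sensors and kinases were lower. The 12 higher ISRE-type targets were 8 to 17 with single arrays left out and 5 at an adjusted p under 0.01.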
